A study of Mus musculus with 5 samples.

Results

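A set of 8 genes directs where a T cell goes in a lymph node: Ccr7, S1pr1, S1pr4, Cxcr5, Gpr183, Cxcr4, Klf2 and Klf3. They were taken by gene symbol from a table of 24084 genes, and all 8 were found and passed the filter on low counts. RNA was sequenced from regulatory T cells (Tregs), CD4 T cells that express Foxp3 and keep immune responses in check, sorted from the skin (2 libraries) and from the skin-draining lymph nodes (3 libraries) of mice aged 13 days. All 5 libraries came from the Foxp3-DTR/GFP line, in which cells that express Foxp3 also make green fluorescent protein and a receptor for diphtheria toxin; no treatment is named in the labels. Neither the labels nor the file give the number of animals, any pooling or the sort gates. A p-value therefore measures only the spread among these 5 libraries, and part of that may be technical.

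A naive or resting T cell enters a lymph node through high endothelial venules, where CCR7 senses the chemokines CCL19 and CCL21. Inside the node CCR7 holds it in the T cell zone, CXCR5 draws it to B cell follicles along CXCL13, and GPR183 (EBI2) guides it along oxysterols at the follicle border. It leaves into the lymph by S1PR1, which senses sphingosine 1-phosphate (S1P). KLF2 is a zinc finger factor that drives S1pr1 transcription in T cells, and KLF3 is a related factor that mostly represses.

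In skin Tregs the gene of the egress receptor, S1pr1, averaged 0.125 of its lymph node level and was the one member to pass the test. Ccr7 and Cxcr5, the receptors of node entry and follicle positioning, averaged 0.00779 and 0.0192 of their lymph node levels without passing it. S1pr4, Gpr183 and Cxcr4 lay above all lymph node libraries in both skin libraries, and none of these 3 passed. By edgeR's quasi-likelihood test, 1 of the 8 genes was lower and 0 were higher at an adjusted p under 0.05, where 5.30% of the 11437 tested genes were lower and 2.40% higher. For 5 genes both skin libraries lay below all lymph node libraries, and for 3 both lay above; over all tested genes these shares were 33.5% and 16.8%. The median log2 fold change was -1.87 over the 8 genes and -0.21 over all tested genes. With 2 skin and 3 lymph node libraries the smallest two-sided p of an exact permutation test is 0.1, so each call leans on spread estimated over many genes.

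Levels are given as CPM, which are counts relative to the library total after TMM scaling, and fold changes are skin over lymph node. Gene counts numbered 10468795 and 10787378 in the skin libraries and 12305644 to 14595018 in the lymph node libraries. Fewer genes had a count in skin, 9192 and 9894, against 12173 to 12540 in lymph node. The skin libraries also differed more from each other, by a median of 1.18 on the log2 scale per gene, against 0.41 to 0.50 between lymph node libraries. Foxp3 was at 97.8 ± 28.1 CPM in skin and 94.8 ± 5.09 CPM in lymph node Tregs (SD, n = 2 and 3). Of 7 tested Treg and T cell markers, 2 were called higher, Ctla4 and Ikzf2 (log2 fold change 1.74 and 0.89), and 0 lower. Cd3e, Cd3d and Cd4, not called, had both skin libraries below all lymph node libraries (log2 fold change -0.83, -0.90 and -0.43). A list of 12 markers of macrophages and dendritic cells summed to 1201 and 1340 CPM in skin, against 9.80 to 20.5 CPM in lymph node, and 4 of the 8 tested were called higher. Of 8 B cell markers, 7 were at 0 in skin. Of 10 endothelial markers, 7 were at 0 in skin, Cdh5 among them. Lyve1, which some macrophages also express, was at 42.0 and 90.4 CPM there. Emcn was at 12.9 CPM in skin library 1 and 0 in skin library 2, and Kdr had 2 reads in skin library 1. None of Lyve1, Emcn and Kdr had a count in lymph node. A list of 8 keratinocyte markers summed to 105 and 115 CPM in skin, with Krt14 called higher, against 2.85 to 4.39 CPM in lymph node. Krt14 held most of that sum in skin (68.9 and 109.5 CPM), where Krt5 was at 0 and 1.40 CPM. Of the 8, 3 had no count in skin, among them Krt10, which was at 2.32, 4.31 and 2.85 CPM in lymph node. The CD8 T cell gene Cd8a had no count in skin, against 7.23, 12.2 and 22.9 CPM in lymph node, and was called lower (edgeR adjusted p = 0.0491). Cd8b1, of the same list, was at 22.2 CPM in skin library 1 and 0 in skin library 2. It was at 45.4, 29.2 and 46.5 CPM in lymph node and was not called (edgeR adjusted p = 0.623). The part of these other cell types in the levels of the 8 genes was not tested. In bulk libraries, fewer cells with a transcript and less of it per cell cannot be told apart.

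**Figure D1:**
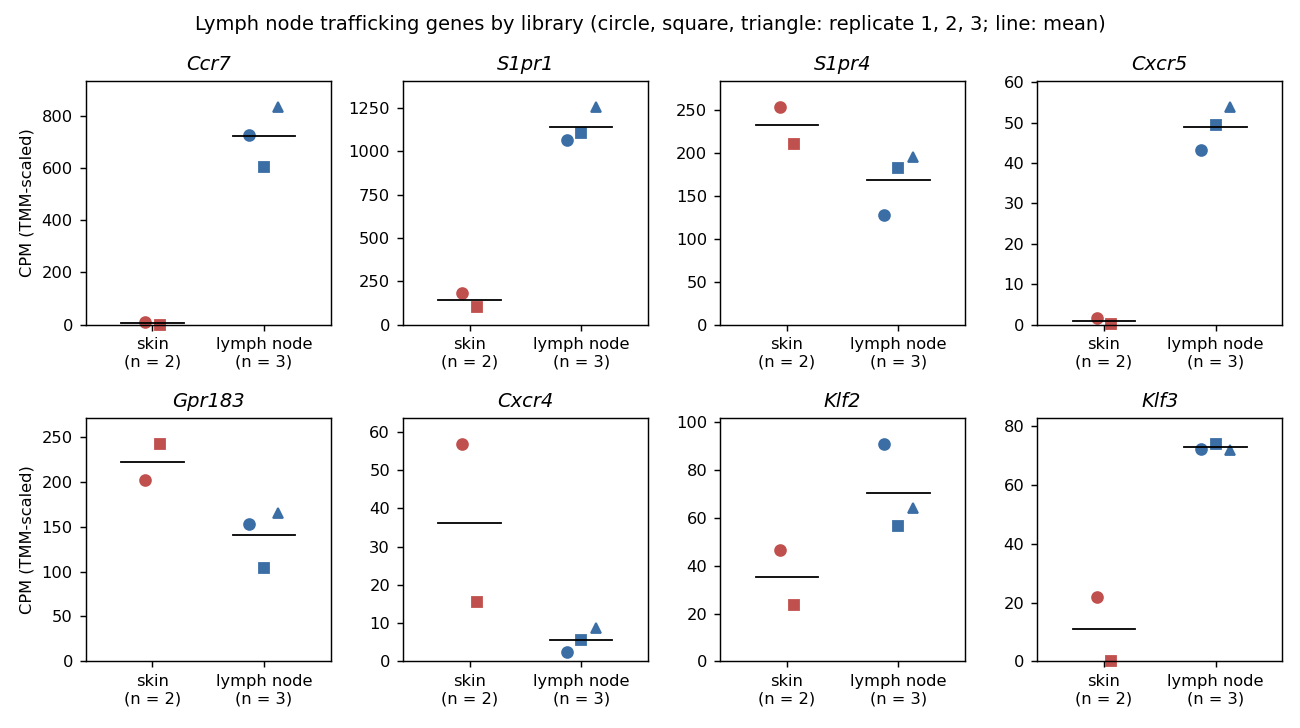
Level of each of the 8 trafficking genes in every library, in TMM-scaled CPM on a linear axis from 0; points are libraries and the line is the group mean. Both skin libraries lie below all lymph node libraries for Ccr7, S1pr1, Cxcr5, Klf2 and Klf3 and above them for S1pr4, Gpr183 and Cxcr4.

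Promoter windows were at hand for 5 of the 8 genes (Cxcr4, Gpr183, Klf2, Klf3 and S1pr4), from RefSeq on GRCm38.p6, each spanning 250 bases before to 50 after the start that RefSeq gives the gene. For Klf2 and Klf3 that start lies downstream of the GENCODE start used for the gene positions given further on. Those of the 2 KLF genes are shown because both had lower values in both skin libraries, and because KLF proteins bind CACCC boxes, which also stand in promoters of KLF genes themselves. Capitals mark each CACCC, or GGGTG where it lies on the other strand.

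Klf2 (chr8:72318812-72319111, plus strand): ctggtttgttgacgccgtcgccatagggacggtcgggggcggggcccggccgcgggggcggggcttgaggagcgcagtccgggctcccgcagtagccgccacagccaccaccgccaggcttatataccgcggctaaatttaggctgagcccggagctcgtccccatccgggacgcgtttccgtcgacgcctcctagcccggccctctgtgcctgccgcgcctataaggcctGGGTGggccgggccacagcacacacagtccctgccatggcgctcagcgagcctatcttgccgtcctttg
Klf3 (chr5:64803271-64803570, plus strand): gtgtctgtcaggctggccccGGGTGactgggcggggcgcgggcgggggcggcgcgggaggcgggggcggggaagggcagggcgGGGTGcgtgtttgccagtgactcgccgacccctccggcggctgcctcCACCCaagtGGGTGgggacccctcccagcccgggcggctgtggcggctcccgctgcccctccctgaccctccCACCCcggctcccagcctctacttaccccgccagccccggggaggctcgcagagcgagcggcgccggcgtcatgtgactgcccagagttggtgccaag

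The Klf3 window, the richest of the 5 in G and C at 76.7%, holds CACCC 5 times on both strands together. That number is reached by 1.02% of 32851 promoter windows of this length, whatever their content of G and C. The Klf2 window holds CACCC once, as do those of Cxcr4 and S1pr4, and the Gpr183 window holds none. Of all windows, 57.5% hold at least 1. The FOXO core GTAAACA, searched because FOXO1 acts upstream of Klf2 in T cells, is in none of the 5 windows and in 3.65% of all. These matches describe letters in a window and not sites of binding.

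Ccr7 (chromosome 11, 99144196 to 99155077, mm10, minus strand) encodes the receptor for CCL19 and CCL21. It had 11.2 CPM and no count in the skin libraries, against 727, 604 and 832 CPM in the lymph node libraries. The groups did not overlap. All 120 skin reads were in library 1, and the count of 0 in library 2 allows up to 0.300 CPM. The log2 fold change was -7.00 (SE 1.83, 95% interval -11.59 to -2.41) with an adjusted p of 0.0679 in edgeR. DESeq2 and limma-voom called it lower (adjusted p = 0.000956 and 0.0225), in tests that called 16.6% and 14.6% of genes lower. Among 273 tested genes averaging 500 CPM or more in lymph node, 2 had no count in skin library 2 (0.733%), Ccr7 being one of them. That share is set by the lymph node level. It does not say how often skin library 2 misses a gene that is at 11.2 CPM in skin library 1.

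S1pr1 (chromosome 3, 115710433 to 115715072, minus strand) was at 186 and 99.8 CPM in the skin libraries, against 1067, 1105 and 1254 CPM in the lymph node libraries. All lymph node values lay more than 5-fold above the higher skin value. The log2 fold change was -3.0002 (SE 0.34, 95% interval -3.86 to -2.14) with an adjusted p of 0.0302 in edgeR. Leaving out 1 lymph node library, whichever it was, ended the call (adjusted p = 0.113 to 0.115, log2 fold change -3.05 to -2.93), where edgeR called 0 genes in all (2361 to 2485 at an unadjusted p under 0.05). It was also lost with the replicate number as a block (adjusted p = 0.113).

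S1pr4 (chromosome 10, 81497747 to 81500132, minus strand) encodes a second S1P receptor of lymphocytes. It had 253 and 210.4 CPM in skin, against 127, 182 and 195 CPM in lymph node. The groups did not overlap but lay close together, with a log2 fold change of 0.46 (SE 0.29, 95% interval -0.27 to 1.20; edgeR adjusted p = 0.37). The pair of S1P receptors thus stood in a different proportion in each tissue: S1pr1 had 0.735 and 0.474 reads per S1pr4 read in the skin libraries, against 8.37, 6.08 and 6.45 in the lymph node libraries. This ratio does not depend on how libraries are scaled, and it was not tested.

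Cxcr5 (chromosome 9, 44511787 to 44561877, minus strand), the CXCL13 receptor of follicular T and B cells, was close to absent from skin. The skin libraries held 19 and 1 reads, or 1.78 and 0.0999 CPM, against 43.3, 49.4 and 53.8 CPM in the lymph node libraries. No skin value came near a lymph node value, with a log2 fold change of -5.68 (SE 1.46, 95% interval -9.33 to -2.03) and an edgeR adjusted p of 0.0653. DESeq2 and limma-voom called it lower (adjusted p = 4.19e-06 and 0.0136). B cells express Cxcr5, and the 8 B cell markers summed to 22.1 and 72.3 CPM in skin, against 132, 83.5 and 245 CPM in lymph node libraries 1 to 3. Of them, Ms4a1 (CD20) had no count in skin, against 4.495, 8.78 and 38.9 CPM in lymph node, while Cd79b was at 22.1 and 72.3 CPM in skin, against 119, 61.7 and 120.4 CPM in lymph node. The part of B cells in the Cxcr5 level was not tested. The Cxcr5 gene model overlaps Bcl9l on the other strand, and the labels do not say whether the counting used strand.

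Gpr183 (chromosome 14, 121952551 to 121965195, minus strand), the oxysterol receptor, was at 202 and 242 CPM in skin, against 152, 104 and 166 CPM in lymph node. It was the one member with more in skin library 2 than in skin library 1 (a ratio of 0.836). The log2 fold change was 0.66 (SE 0.31, 95% interval -0.12 to 1.43) and edgeR's adjusted p 0.231, so a difference was not shown. Per Ccr7 read, Gpr183 had 18.0 reads in skin library 1 and 0.173 to 0.210 in the lymph node libraries. This ratio has no value in skin library 2, where Ccr7 had no count, and it mostly follows the Ccr7 level. The gene lies within Ubac2, which runs on the other strand, and macrophages and dendritic cells also express Gpr183; the part of the macrophage and dendritic cell signal in its level was not tested.

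Cxcr4 (chromosome 1, 128588199 to 128592293, minus strand), the CXCL12 receptor, had the lowest level per exon length of the set in lymph node. It was at 56.9 and 15.5 CPM in skin, against 2.39, 5.49 and 8.70 CPM in lymph node. Neither skin value overlapped the lymph node range, but the 2 differed 3.68-fold from each other, as the lymph node values did 3.64-fold. The log2 fold change was 2.71 (SE 1.02, 95% interval 0.16 to 5.26) with an edgeR adjusted p of 0.149. DESeq2 called it higher (adjusted p = 0.022), in a test that called 9.44% of genes higher, and limma-voom, which called 4.95% higher, did not (adjusted p = 0.172). Macrophages express Cxcr4 as well. The macrophage and dendritic cell list summed to 1340 CPM in the first skin library and 1201 CPM in the other. Its single genes did not move together. From skin library 1 to 2, Adgre1 went from 224 to 20.7 CPM and Mrc1 from 362 to 138 CPM. Over the same step Lyz2 went from 377 to 447 CPM and Csf1r from 120 to 264 CPM. The part of these cells in the Cxcr4 level was not tested.

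Klf2 (chromosome 8, 72319033 to 72321656, plus strand) was at 46.7 and 23.8 CPM in skin, against 90.9, 56.5 and 64.0 CPM in lymph node. The mean in skin was 0.500 of that in lymph node, with a gap of under 10 CPM between the nearest libraries of the groups. The log2 fold change was -0.9998 (SE 0.58, 95% interval -2.44 to 0.44; edgeR adjusted p = 0.32), so a difference was not shown. Klf3 (chromosome 5, 64803388 to 64832901, plus strand) had 21.9 CPM and no count in skin, against 72.4, 74.1 and 72.1 CPM in lymph node. Its lymph node values varied least of the 8 genes (a highest to lowest ratio of 1.03) and its skin values were among the most uneven; the gene model also overlaps 2 non-coding ones, Gm20033 on the other strand and C230096K16Rik on the same strand. The log2 fold change was -2.73 (SE 2.03, 95% interval -7.82 to 2.35) with an edgeR adjusted p of 0.447. Among 4217 tested genes averaging 50 CPM or more in lymph node, 173 had no count in skin library 2 (4.1%) and 28 had none in either skin library.

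**Figure D2:**
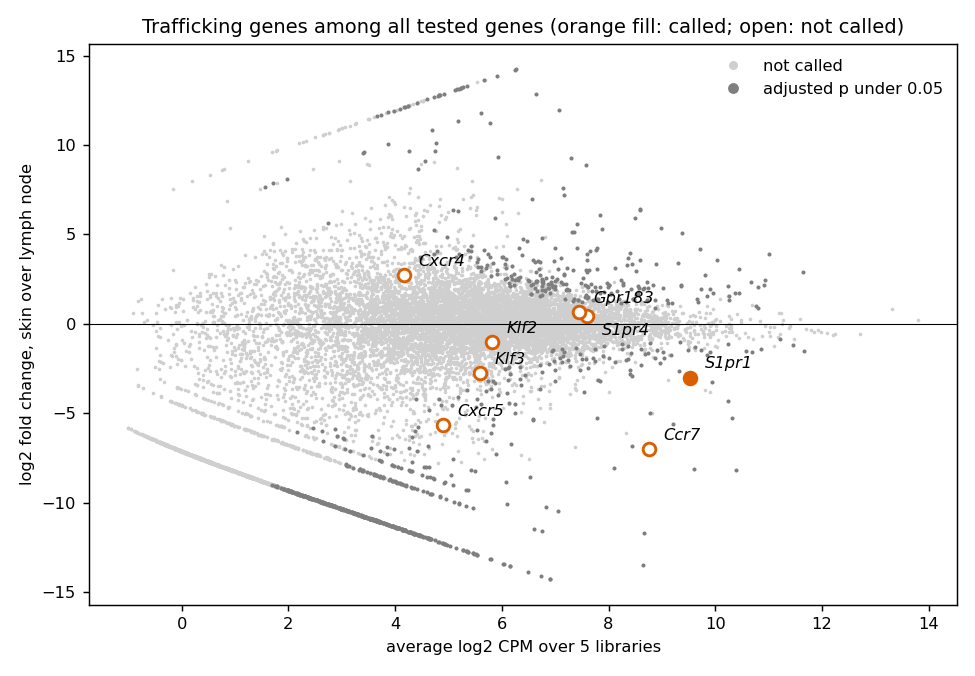
Log2 fold change of skin over lymph node against the average log2 CPM of the 5 libraries for all 11437 tested genes, with the 8 trafficking genes as circles (filled where the edgeR adjusted p is under 0.05). S1pr1 and Ccr7 stand low among abundant genes, S1pr1 called and Ccr7 not, and S1pr4 and Gpr183 lie near 0.

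Divided by exon length, the order of the 8 genes differed between tissues. In skin, S1pr4 (97.1 ± 12.6 CPM per kb) and Gpr183 (81.6 ± 10.3) led, then S1pr1 (46.9 ± 19.95), Cxcr4 (20.1 ± 16.2), Klf2 (19.1 ± 8.78), Ccr7 (2.84 ± 4.02), Klf3 (2.097 ± 2.97) and Cxcr5 (0.359 ± 0.454; SD, n = 2). In lymph node the order was S1pr1 (375 ± 32.5 CPM per kb), Ccr7 (365 ± 57.7), S1pr4 (70.4 ± 14.9), Gpr183 (51.7 ± 11.9), Klf2 (38.2 ± 9.79), Cxcr5 (18.7 ± 2.03), Klf3 (13.96 ± 0.204) and Cxcr4 (3.06 ± 1.75; SD, n = 3). Neighbours whose libraries overlapped were S1pr4 with Gpr183, Cxcr4 with Klf2, Ccr7 with Klf3 and Klf3 with Cxcr5 in skin, and S1pr1 with Ccr7, S1pr4 with Gpr183 and Gpr183 with Klf2 in lymph node. Ccr7 was thus level with S1pr1 at the top in lymph node and near the bottom in skin. These levels use exon lengths of GENCODE M21 transcripts matched to RefSeq, which may differ from the annotation the authors counted on.

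For 3 of the genes, the nearest profiles over the 5 libraries were sought among 5585 other tested genes (average log2 CPM at least 5). Genes with predicted or provisional names were left out. Distance was the root mean square difference of centred log2 CPM. Nearest to Ccr7 were Slfn1, Izumo1r and Cd96, at 0.679, 0.76 and 0.874. Nearest to S1pr1 were Arhgef18, Dram2 and Igf1r, at 0.0946, 0.0982 and 0.146, and nearest to Klf2 were Pddc1, Psmb2 and Btf3, at 0.0354, 0.0524 and 0.0576. Thus, among these 5585 genes, Ccr7 had no neighbour as close as those of S1pr1 or Klf2. The distance was not scaled for how widely a gene varies over the libraries. Slfn1, like Ccr7, had few reads in skin (15.0 and 0.200 CPM) against 586, 366 and 632 CPM in lymph node.

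Around these 8 genes, 90 others of the same pathway were grouped by role into 7 lists. Of these, 65 were tested, 4 were higher, 3 lower and 58 did not pass the edgeR threshold, where 2.40% of all tested genes were higher and 5.30% lower. The counts below are descriptions, and nothing particular to a list is read from them. Among 8 adhesion genes of lymph node entry, 2 were lower and 0 higher (median log2 fold change -0.83, against -0.21 over all tested genes). Itga4, the alpha4 integrin chain, fell to 62.0 and 95.8 CPM in skin, against 298, 315 and 277 CPM in lymph node (log2 fold change -1.91, edgeR adjusted p = 0.044).

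**Figure D3:**
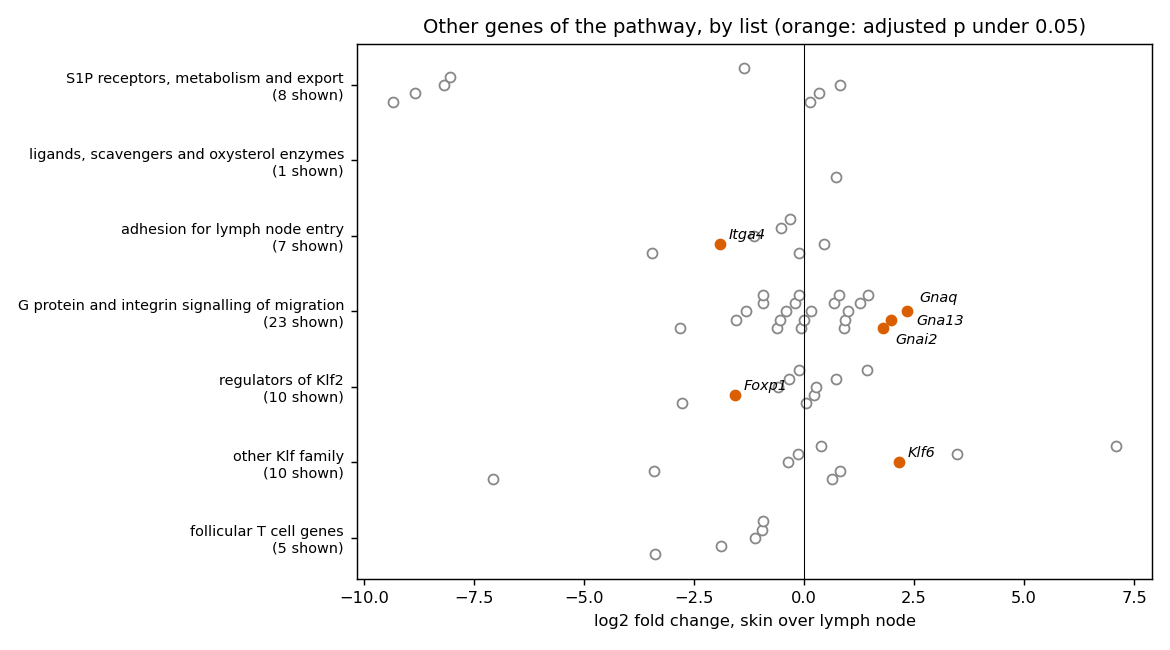
Log2 fold change of skin over lymph node for 64 of the 65 tested genes of the 7 pathway lists, 1 row per list with points spread vertically for legibility; orange marks an edgeR adjusted p under 0.05. The called genes shown are Itga4 and Foxp1 on the lower side and Gnaq, Gna13, Gnai2 and Klf6 on the higher side.

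None of the 8 tested genes of S1P receptors, metabolism and export passed. Cd69, whose protein binds S1PR1 and pulls it from the cell surface, was at 664 and 661 CPM in skin, against 684, 575 and 545 CPM in lymph node. Its log2 fold change was 0.14 (SE 0.19, 95% interval -0.34 to 0.62; edgeR adjusted p = 0.697), and the groups overlapped. Sgpl1, the lyase that degrades S1P, was at 163.5 and 93.0 CPM in skin, against 48.3, 99.2 and 71.5 CPM in lymph node (edgeR adjusted p = 0.33). S1pr2, another S1P receptor, had no count in skin, against 4.495, 9.17 and 0.0679 CPM in lymph node (edgeR adjusted p = 0.152). S1pr3 had 1 read in skin and 2 in lymph node, and S1pr5 had none in any library.

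The ligands were close to absent from these libraries. Of 10 genes for ligands, scavenger receptors and oxysterol enzymes, only Hsd3b7, an enzyme of oxysterol and bile acid metabolism, was abundant enough to test. It had 57.5 CPM and no count in skin, against 25.6, 8.62 and 17.8 CPM in lymph node (edgeR adjusted p = 0.871). Ackr4, a scavenger receptor of CCR7 ligands, had no count in skin, against 0, 0.392 and 1.02 CPM in lymph node. Ccl19, Ccl21a, Ccl21b, Cxcl13, Ch25h and Cyp7b1 had no count in any library.

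Among 23 tested genes of G protein and integrin signalling, 3 were higher and 0 lower, with a median log2 fold change of 0.00. Gnai2, the inhibitory G protein subunit through which all the receptors here signal, rose to 542 and 771 CPM in skin, against 249.8, 168 and 154 CPM in lymph node (log2 fold change 1.78, edgeR adjusted p = 0.0456). Gna13, a G protein subunit that limits migration, rose to 458 and 786 CPM in skin, against 205, 152 and 118 CPM in lymph node (log2 fold change 1.97, edgeR adjusted p = 0.0463). Gnaq rose to 209.8 and 172 CPM in skin, against 29.2, 47.6 and 37.0 CPM in lymph node (log2 fold change 2.33, edgeR adjusted p = 0.0444). Other cell types also express these 3 genes, and the part of the macrophage and dendritic cell signal in them was not tested.

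Upstream of Klf2, 1 of 10 tested regulators was lower and 0 higher. Foxp1, a forkhead factor of T cell quiescence, fell to 305 and 167 CPM in skin, against 732, 702 and 682 CPM in lymph node (log2 fold change -1.58, edgeR adjusted p = 0.0489). Foxo1, the forkhead factor that induces Klf2, was at 179 and 245 CPM in skin, against 322, 325 and 309.5 CPM in lymph node, and did not pass (log2 fold change -0.59, 95% interval -1.19 to 0.01, edgeR adjusted p = 0.178). In the rest of the Klf family, 1 of 10 tested genes was higher and 0 lower. Klf6, a factor of activation and stress responses, rose to 1027 and 669 CPM in skin, against 202, 149 and 221 CPM in lymph node (log2 fold change 2.15, SE 0.29, edgeR adjusted p = 0.0381). Klf6 is also expressed by macrophages. Of 5 tested follicular T cell genes none passed, with a median log2 fold change of -1.13 against -0.21 over all tested genes. All 5 were negative, as were 55.7% of all tested genes. Slamf6, an adhesion and signalling receptor, was at 173 and 240.3 CPM in skin, against 526, 441 and 387 CPM in lymph node (edgeR adjusted p = 0.0578). Sh2d1a, the adaptor SAP, was at 126 and 95.7 CPM in skin, against 265, 189 and 195 CPM in lymph node (edgeR adjusted p = 0.106).

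Which of the 8 genes passed depended on the test and on the libraries. Each log2 fold change kept its sign in all 12 alternatives. That was largely fixed in advance, because the groups did not overlap for any of the 8 genes. Leaving out a library could therefore hardly turn a sign, and the kept signs add no support for a direction. Without skin library 1, S1pr1, Ccr7, Cxcr5, Klf2 and Klf3 were called lower, and without skin library 2, S1pr1, Ccr7, Cxcr5 and Klf3 were called lower and Cxcr4 higher. In those fits the lone skin library is taken to vary as the lymph node libraries do, and edgeR called 6065 and 4904 genes in all. S1pr4 and Gpr183 were called in none of the 12.

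**Figure D4:**
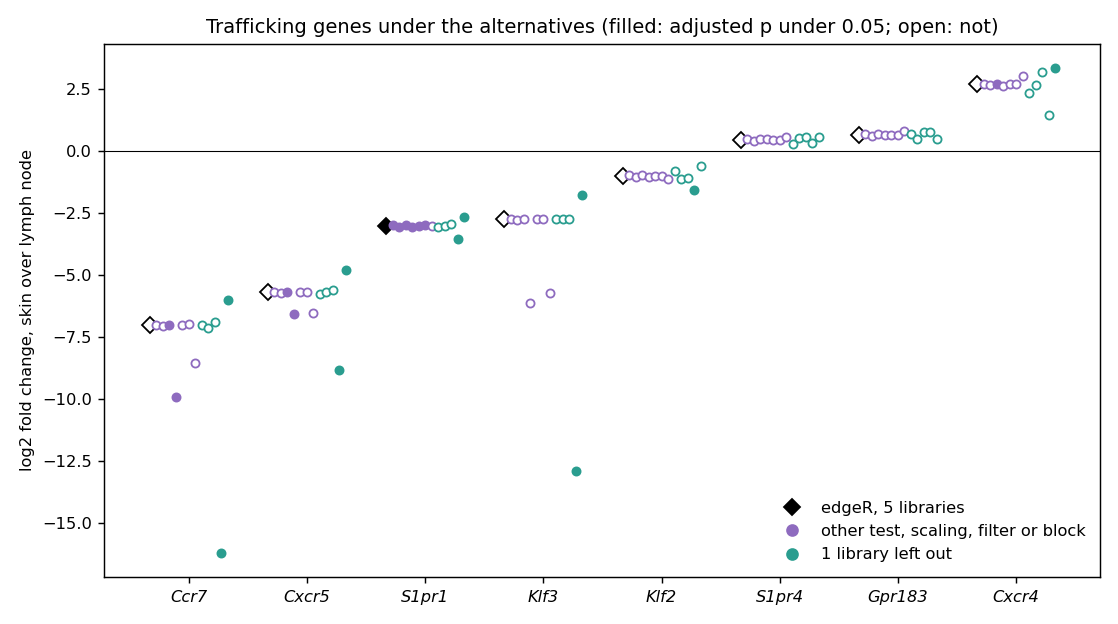
Log2 fold change of skin over lymph node for each trafficking gene in edgeR with 5 libraries (diamond) and in 12 alternatives (circles); filled symbols have an adjusted p under 0.05. All symbols of a gene lie on 1 side of 0, and leaving out a skin library moves Ccr7, Cxcr5 and Klf3 most.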

How the data were processed

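Messenger RNA of sorted Tregs was profiled in 2 skin and 3 lymph node libraries, grouped by their titles. Per the labels' protocols, cells were frozen, RNA was purified on columns and libraries were built with the SMARTer Ultra Low Input kit. Per the submitters' processing notes, the tools were TopHat2 2.0.12, Bowtie2 2.1.0.0, HTSeq 0.6.1, SAMtools 0.1.19.0 and CASAVA 1.8.2 and the build was mm10. No options, and no setting for strand, are named in the labels. The table the authors deposited holds raw counts per gene symbol. Its header was read as shifted by 1 cell. Its 5 HTSeq summary lines stayed out of library sizes and tests. The line for alignments that were not unique took 64.5 to 72.0% of all counts in the table. The line for no counted feature took 8.35 to 13.97%.

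Counts were analysed with edgeR 4.0.16 in R 4.3.3 (filterByExpr, minimum count 10; TMM; quasi-likelihood F test; Benjamini-Hochberg adjustment over all 11437 tested genes; threshold 0.05). The SE is the log2 fold change divided by the square root of F, and 95% intervals use the total degrees of freedom of the fit (prior and residual). DESeq2 1.42.0 and limma 3.58.1 (voom) were alternatives, beside other scalings and filters, a replicate block and leaving out each library. The fit was tested on simulated data. A count of 0 is given an upper limit of 3 counts; such limits cover counting error only, since PCR copies are not independent molecules. Positions are those of GENCODE M21 on GRCm38 (mm10).

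The 8 genes and the lists around them were chosen with earlier results of these data known. Named genes were the 8, and of each list up to 4 called genes by adjusted p or else the 2 most abundant. Cd69 and Foxo1, the 3 nearest profiles of Ccr7, S1pr1 and Klf2, and defining markers were named as well. Other list genes named at or near 0 were chosen after their values were seen. So were Lyve1, Emcn, Cd3e, Cd3d, Cd4, Ctla4, Ikzf2, Cd79b, Krt14, Krt5, Krt10, Cd8a, Cd8b1, Adgre1, Mrc1, Lyz2 and Csf1r. Some genes that this rule takes are counted but not reported here.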

Additional observations from a re-analysis of the deposited data

How the results depend on the processing

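Over all genes, edgeR called 881 with 5 libraries. DESeq2 called 3360, limma-voom 2231, edgeR without a low-count filter 315, with a stricter filter (50 counts in 2 libraries) 1425 and with the replicate number as a block 21; leaving out 1 library gave 0 to 6065. Of the 8 trafficking genes, 1 was called lower with 5 libraries, 3 by DESeq2, 3 by limma-voom and 0 with the replicate block; leaving out 1 library gave 0 to 5, with 0 whenever a lymph node library was left out (3 at an unadjusted p under 0.05 in each such fit). Those of the 8 called higher numbered 0 with 5 libraries (1 at an unadjusted p under 0.05), 1 by DESeq2 and 0 to 1 with 1 library left out. Of the pathway list genes, 7 were called with 5 libraries, 16 by DESeq2, 14 by limma-voom, 3 without a low-count filter and 1 with the replicate block, and 0 to 33 with 1 library left out. RLE scaling and no scaling beyond gene totals changed no call of the 8 genes. The median log2 fold change of all genes was -0.21 with TMM, -0.17 with RLE and -0.27 without scaling; the cause of the differences between tests was not tested.

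The libraries share replicate numbers 1 and 2 across tissues, but nothing in the labels says that a number marks a shared animal or day. The numbers were therefore not taken as pairs. Deviations from the group means of same-numbered libraries had correlations across genes of -0.03 and -0.02. With 2 skin libraries the skin deviations mirror each other, so these values are not separate checks and cannot decide whether libraries were paired. Low counts limit Ccr7, Klf3 and Cxcr5 in skin, where 1 or both libraries held fewer than 20 reads. The 2 skin libraries were of similar depth (10787378 and 10468795 gene counts), and the cause of their differences in these genes was not tested.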
